A study of Mus musculus with 6 samples.

Results

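The 10 genes described here encode proteins that tie the slit diaphragm and the podocyte membrane to actin, namely Synpo, Cd2ap, Actn4, Anln, Nck1, Nck2, Ezr, Kirrel, Plce1 and Palld. They were taken by name from the 19938 mouse genes measured, and all 10 had 1 probe set that the platform's annotation assigns to a single gene. RNA came from differentiated cells of an immortalized murine podocyte line, in 3 samples of input RNA and 3 of RNA recovered from a cytoplasmic lysate with an antibody against the RNA-binding protein Staufen2. The line was expanded in medium with gamma-interferon at a permissive temperature and differentiated without it at a non-permissive one, and no other treatment separates the groups. Each array was labelled from 100 ng of RNA, so a difference concerns a transcript's part in the RNA and not the amount recovered. Pulldowns with a control antibody were not analysed here, so a higher value in the pulldown is not a measure of binding to Staufen2 as such. The labels do not tie the replicates to separate cultures, so p-values reflect no more than sample-to-sample spread, possibly of technical origin. Lysates of whole cultures were measured, so a transcript recovered from more cells and more of it recovered per cell cannot be told apart.

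Podocytes cover the glomerular capillaries with interdigitating foot processes, whose shape rests on bundles of actin filaments. The slit diaphragm between neighbouring processes is built from nephrin and the nephrin-like Kirrel proteins, and cytoplasmic adaptors such as CD2AP and the Nck proteins connect it to actin assembly. Staufen2 binds double-stranded RNA and is best known for carrying mRNAs into dendrites, and the series title names local translation and cytoskeletal reorganization as its question.

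The mRNAs of 9 of the 10 genes were higher in the Staufen2 pulldown than in the input, 0 were lower, also at an unadjusted p under 0.05 in limma, and Kirrel did not pass the test. Anillin mRNA stood at 1.71-fold and synaptopodin mRNA at 1.40-fold, and no fitted difference reached 2-fold. The fitted 1.57-fold of Plce1 is uncertain in size, since its input values lay at a level where signal can be mostly background. The median log2 difference of the 10 was 0.37, against 0.04 for all genes. Calls used limma's moderated test with a Benjamini-Hochberg adjusted p below 0.05, by which 31.3% of all genes were higher and 17.3% lower. The probe sets had a median log2 value of 6.54, under which signal can be mostly background. Among the 12156 genes over 6.54 in either group 45.9% were higher; 9 members were over it in both groups and Plce1 only in the pulldown. The pulldown arrays lay above all input arrays for each of the 10 genes, which held in that direction for 36.4% of all genes.

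**Figure D1:**
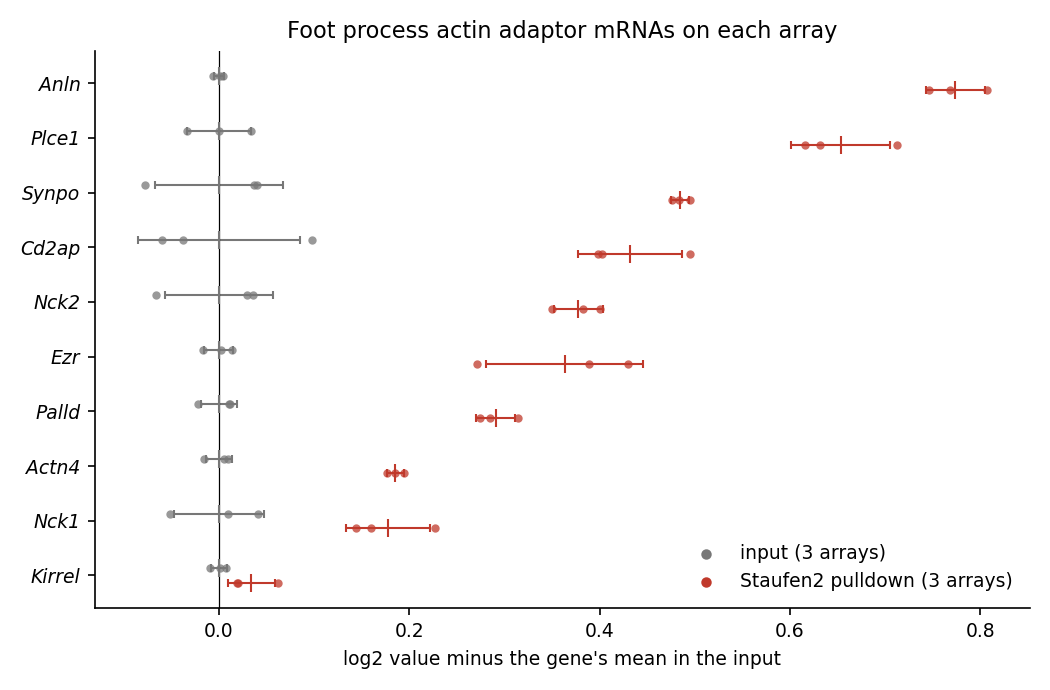
Each row is a gene, with the log2 value of each array minus that gene's mean in the 3 input arrays on the horizontal axis; points are arrays and bars the mean ± SD of 3. The pulldown arrays lie to the right of the input arrays in every row, by a gap of 0.74 for Anln at the top and 0.01 for Kirrel at the bottom.

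Among the proteins of actin bundles, anillin, Anln, binds filamentous actin and myosin, shapes the cytokinetic ring and is a gene of inherited focal segmental glomerulosclerosis in humans. On the log2 scale its values were 10.75, 10.75 and 10.74 in input samples 1 to 3 and 11.52, 11.56 and 11.49 in pulldown samples 1 to 3. The lowest pulldown value was thus 0.74 above the highest input value, the widest gap among the 10. The difference was 0.77 ± 0.028 (log2 difference ± SE, limma adjusted p = 5.9e-07), and 95.6% of all genes had a smaller one.

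Synaptopodin, Synpo, is an actin-associated protein of foot processes and dendritic spines that stabilizes stress fibres. Its log2 values were 8.21, 8.32 and 8.33 in the input and 8.76, 8.77 and 8.78 in the pulldown. The pulldown arrays were nearly level (SD 0.0095, n = 3), while input sample 1 lay below the other 2 (SD 0.067, n = 3). The groups did not overlap, and the difference was 0.48 ± 0.038 (SE, limma adjusted p = 2.2e-05).

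Palladin, Palld, is an immunoglobulin-domain scaffold of stress fibres that binds alpha-actinin. It had log2 values of 11.17, 11.20 and 11.20 in the input and 11.47, 11.50 and 11.46 in the pulldown, with SDs of 0.019 and 0.021 (n = 3 each). All pulldown values exceeded all input values, and the difference of 0.29 ± 0.027 (SE, limma adjusted p = 6.0e-05) corresponds to 1.22-fold. Actn4, the alpha-actinin that crosslinks actin filaments in podocytes and is mutated in a dominant form of human focal segmental glomerulosclerosis, had values of 13.10, 13.09 and 13.07 in the input and 13.28, 13.27 and 13.26 in the pulldown. Although the arrays of each group were close together (SDs 0.013 and 0.0092, n = 3 each), the difference was small at 0.19 ± 0.026 (SE, limma adjusted p = 0.00053), or 1.14-fold. After cyclic loess scaling it was 0.11, and that of Palld was 0.19.

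Kirrel, also called NEPH1, is the transmembrane partner of nephrin in the slit diaphragm and the only member that did not pass. Its log2 values were 11.34, 11.35 and 11.33 in the input and 11.36, 11.36 and 11.40 in the pulldown, so the groups lay side by side with a gap of 0.01. The difference was 0.03 ± 0.027 (SE, limma adjusted p = 0.35) with a 95% confidence interval of -0.03 to 0.10, and the level lay well over 6.54 on every array. Its sign turned under 2 other scalings, to -0.07 after cyclic loess and -0.01 when arrays were centred on their brightest probe sets.

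CD2AP binds nephrin and the actin capping protein, and mice that lack it develop nephrotic syndrome. The Cd2ap values were 11.92, 12.08 and 11.95 in the input and 12.39, 12.48 and 12.38 in the pulldown. Sample 2 was the highest of its group on both sides, and the groups stayed 0.30 apart. The difference was 0.43 ± 0.050 (SE, limma adjusted p = 0.00020), or 1.35-fold, and its SE was the largest of the 10.

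Nck1 and Nck2 are SH2 and SH3 domain adaptors that dock on phosphorylated nephrin and recruit regulators of actin polymerization. Nck2 values were 9.57, 9.58 and 9.47 in the input and 9.94, 9.92 and 9.89 in the pulldown, a difference of 0.38 ± 0.037 (SE, limma adjusted p = 6.8e-05). Nck1 values were 9.80, 9.77 and 9.71 in the input and 9.90, 9.98 and 9.92 in the pulldown, a difference of 0.18 ± 0.037 (SE, limma adjusted p = 0.0051). Neither gene's groups overlapped, but those of Nck1 came within 0.10 of each other, and after cyclic loess Nck1 no longer passed (0.06, limma adjusted p = 0.23).

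Plce1, phospholipase C epsilon, produces second messengers downstream of Ras-family GTPases and is a gene of early-onset nephrotic syndrome in humans. Its log2 values were 6.03, 6.06 and 6.10 in the input and 6.77, 6.69 and 6.68 in the pulldown. The input values were under 6.54 and the pulldown values over it, so the gene passes that level only through its pulldown arrays. The groups were 0.58 apart and the difference was 0.65 ± 0.036 (SE, limma adjusted p = 3.4e-06), whose size is uncertain for that reason.

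Ezrin, Ezr, links membrane proteins to cortical actin and in podocytes joins podocalyxin through the scaffold NHERF. Its log2 values were 11.50, 11.53 and 11.52 in the input and 11.91, 11.79 and 11.95 in the pulldown. Pulldown sample 2 was lower than the other 2 but still 0.26 above the highest input value, and the pulldown SD of 0.083 was well over the input SD of 0.015 (n = 3 each). The difference was 0.36 ± 0.044 (SE, limma adjusted p = 0.00024), or 1.29-fold.

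Plce1 was left out of the order of differences because its input values were under 6.54. The other 9 genes ran Anln, Synpo, Cd2ap, Nck2, Ezr, Palld, Actn4, Nck1 and Kirrel. Neighbours from Synpo to Palld differed by no more than 0.07, under 2 combined standard errors, and so did Actn4 and Nck1 (0.01). Gaps wider than 2 combined standard errors separated Anln from Synpo (0.29 ± 0.047), Palld from Actn4 (0.11 ± 0.038) and Nck1 from Kirrel (0.14 ± 0.046). The combined errors treat neighbours as independent although they were measured on the same arrays. Neighbours were also set by sorting on these differences, so the gaps are a description and not a test.

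The span of a gene, introns included, was set beside the differences because the share of coding genes that were higher went from 19.9% of those spanning under 10 kb to 74.9% of those spanning over 100 kb, both among genes over 6.54. Spans came from RefSeq's GRCm38.p6 annotation and serve as a coarse size only, since the platform's annotation names no build and no positions are given. Anln, Synpo, Ezr, Actn4, Nck1 and Kirrel span 30 to 100 kb, a class in which 64.4% of 3363 such genes were higher and the median difference was 0.27. Plce1, Cd2ap, Nck2 and Palld span over 100 kb, where 74.9% of 1548 such genes were higher and the median was 0.42. Anln exceeded its class median by 0.51 and 88.9% of the genes in the class, and Synpo exceeded it by 0.22. Plce1 stood 0.24 above its own, with the uncertainty of its input level. Cd2ap and Nck2 lay within 0.04 of their class median and Ezr 0.10 above it. Actn4, Nck1 and Palld lay 0.08, 0.09 and 0.13 below theirs, and Kirrel 0.23 below, with 25.2% of the genes in its class under it. The share of members called is thus closer to the background in these classes than among all genes. The classes hold only coding genes over 6.54 in either group, and that level cut alone takes the background from 31.3% to 45.9%. A gene under 6.54 in the input, such as Plce1, enters its class only through its pulldown arrays, which favours higher calls. The parts of size and of level in the differences were not tested.

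**Figure D2:**
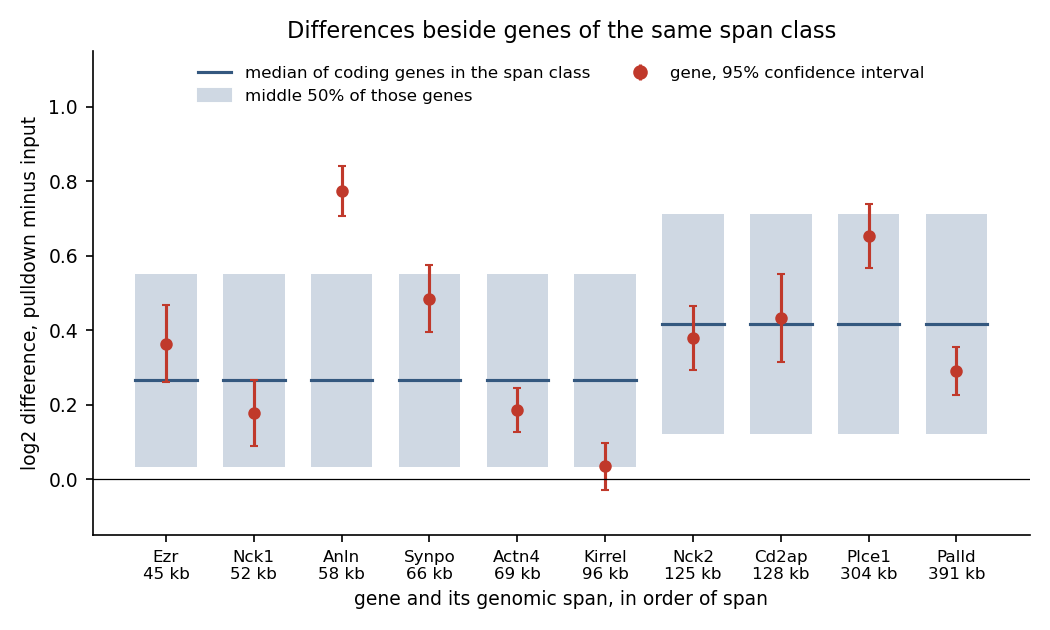
Genes are ordered by genomic span (kb under each name) and the vertical axis gives the log2 difference, pulldown minus input; red points are the genes with 95% confidence intervals, blue lines the median and shaded boxes the middle 50% of coding genes of the same span class (30 to 100 kb or over 100 kb). Anln at 0.77 is the one gene whose point lies above its box, and Kirrel at 0.03 lies at the lower edge of its own.

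For 6 pairs of paralogs it was asked whether near relatives went with the pulldown to the same degree. For each, the log2 value of one gene minus that of the other was taken within an array, and its change from input to pulldown was tested by an exact 2-sided permutation of the 6 arrays, in which 3 against 3 cannot give a p below 0.10, so that no pair could pass at 0.05. Nck2 had the larger difference, and Nck1 minus Nck2 changed by -0.20, with SDs of 0.023 in the input and 0.051 in the pulldown (n = 3 each). The within-array values of the groups did not overlap and gave the smallest p allowed (exact permutation p = 0.10, adjusted p = 0.12 over the 6 pairs).

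Cd2ap had a larger difference than its relative Sh3kbp1, the adaptor CIN85, which stood at 0.11 ± 0.032 (log2 difference ± SE), and the change of Cd2ap minus Sh3kbp1 was 0.32 (exact permutation p = 0.10, adjusted p = 0.12). Kirrel3, a paralog of Kirrel, was higher by 0.43 ± 0.075, and Kirrel minus Kirrel3 changed by -0.40 (exact permutation p = 0.10, adjusted p = 0.12). Actn4 lay slightly under Actn1, the other non-muscle alpha-actinin, at 0.25 ± 0.026, with a change of Actn4 minus Actn1 of -0.06 that was nonetheless wider than its SDs of 0.0040 and 0.012 (n = 3 each, exact permutation p = 0.10, adjusted p = 0.12). Within the ezrin, radixin and moesin family, radixin, Rdx, was higher by 0.52 ± 0.034 and moesin, Msn, by 0.25 ± 0.027. Ezr minus Rdx changed by -0.16 without overlap (exact permutation p = 0.10, adjusted p = 0.12), while Ezr minus Msn changed by 0.11 with overlapping groups (exact permutation p = 0.20, adjusted p = 0.20).

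**Figure D3:**
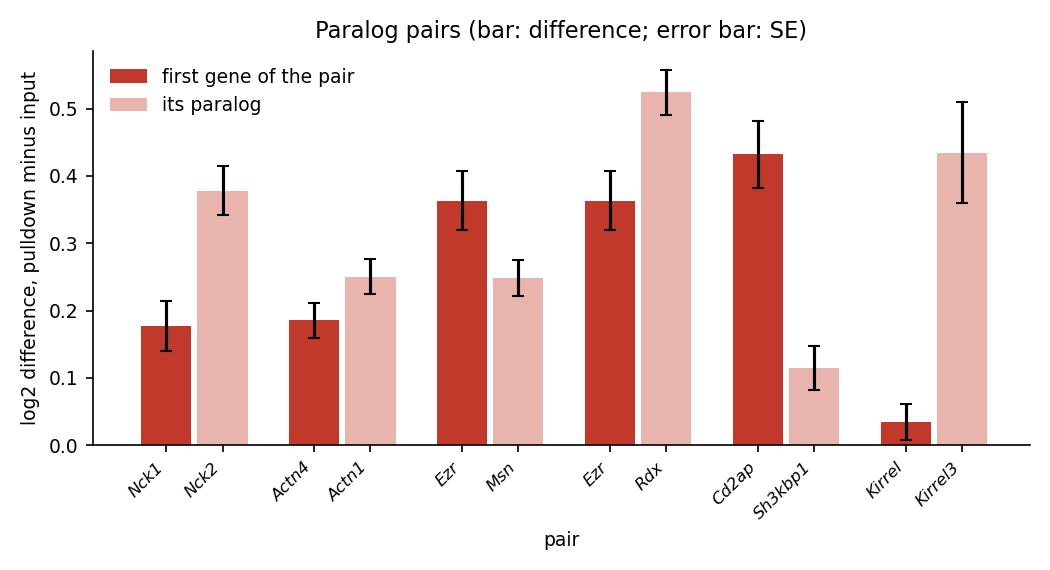
Bars give the log2 difference, pulldown minus input, of each gene and its paralog, with the SE from limma as error bar. Cd2ap (0.43) stands above Sh3kbp1 (0.11), whereas Nck1 (0.18) and Kirrel (0.03) stand below Nck2 (0.38) and Kirrel3 (0.43).

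Of 13 measured paralogs of the members, 7 were higher, 0 lower and 6 not past the test by limma, with a median difference of 0.16. At an unadjusted p under 0.05 by limma 0 were lower too, while 1 was lower in limma after either other scaling of the arrays. Those not past were Synpo2l (0.16), Kirrel2 (0.09), Myot (0.05), Actn2 (0.03), Mypn (-0.04) and Actn3 (-0.08), of which Synpo2l, Myot, Actn2 and Mypn had input values under 6.54. Synpo2, also called myopodin, had the largest difference of the list at 1.05 ± 0.052 and merlin, Nf2, a relative of ezrin, stood at 0.60 ± 0.026, both named after their values were seen. Of all genes 31.3% were higher and 17.3% lower. Over 6.54 in either group were 9 of the 13 paralogs, and 45.9% of all such genes were higher.

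Slit diaphragm and membrane proteins of the podocyte, which the adaptors serve, formed a list of 18 measured genes, of which 8 were higher, 2 lower and 8 not past the test (median 0.11). Of all genes 31.3% were higher and 17.3% lower, and 45.9% of those over 6.54 in either group were higher. Only 12 of the 18 were over 6.54 in either group. Podxl, called higher, was under it in both groups (6.04 and 6.35). Ddn, Lrrc7, Ptpro, Trpc6 and Nphs1, which did not pass, were under it in both too. The polarity protein Pard3 was higher by 0.93 ± 0.031 (SE), the junction scaffolds Tjp1 and Magi1 by 0.84 ± 0.028 and 0.84 ± 0.027, and the giant cadherin Fat1 by 0.50 ± 0.028. The lower genes were Slc9a3r1, the scaffold NHERF1, at -0.50 ± 0.031, and the tetraspanin Cd151 at -0.37 ± 0.044. Nephrin, Nphs1, stood at 0.09 ± 0.037 (limma adjusted p = 0.091), with an input value of 6.30, under 6.54. Slc9a3r2, the related scaffold NHERF2, stood at 0.01 ± 0.027 and did not pass (limma adjusted p = 0.81).

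Binding partners of the adaptors and regulators of actin made up the third list, in which 31 of 44 measured genes were higher, 5 lower and 8 not past the test, with a median difference of 0.44. Across all genes 31.3% were higher and 17.3% lower. All 44 were over 6.54 in the input, and 45.9% of all genes over it in either group were higher. The count of lower partners varied with the processing, at 11 after cyclic loess, 7 after centring on the brightest probe sets, 4 to 6 with 1 array left out and 0 against a 1.2-fold change. Lower calls over all genes also varied, from 3459 as deposited to 4565 after cyclic loess, 4227 after centring and 1822 against a 1.2-fold change. Partners called higher were 30 after either scaling and 24 against a 1.2-fold change. Ect2, the activator of RhoA that acts with anillin in cytokinesis, was higher by 1.03 ± 0.027 (SE). Synj1, a phosphoinositide phosphatase of endocytosis, was higher by 0.95 ± 0.034. Pik3r1, the regulatory subunit of phosphoinositide 3-kinase, followed at 0.88 ± 0.037 and Iqgap1, a scaffold of actin and GTPases, at 0.85 ± 0.029. The lower genes were the protease cathepsin L, Ctsl (-0.31), which is known to cleave synaptopodin in mouse podocytes, the monomer-binding profilin, Pfn1 (-0.21), the capping protein subunit Capzb (-0.18), and the GTPases Cdc42 (-0.17) and Rac1 (-0.11, limma adjusted p = 0.047).

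**Figure D4:**
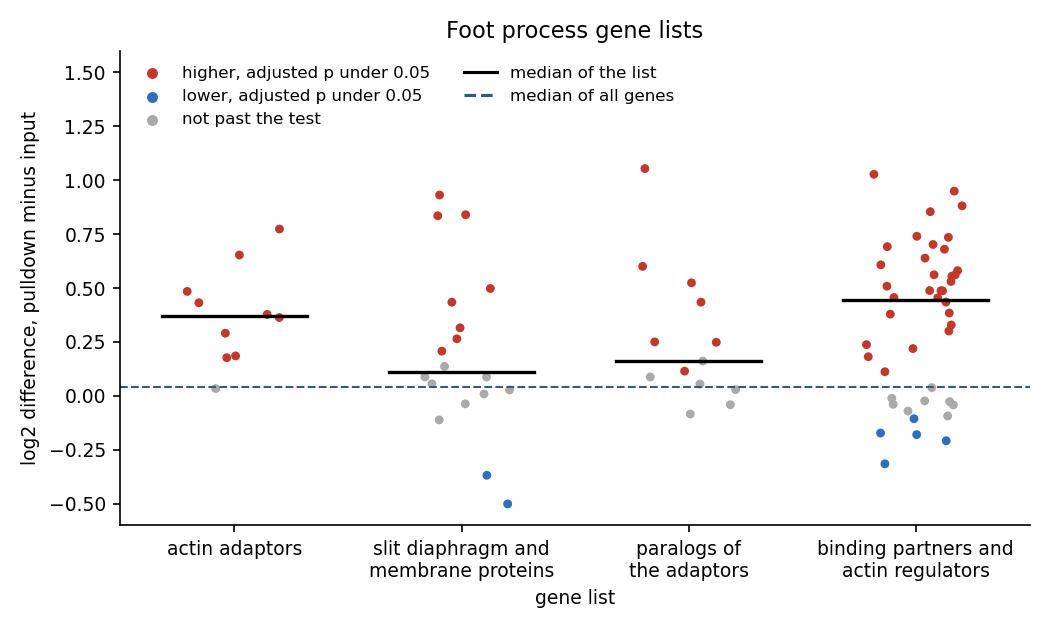
Each point is a gene, placed by its log2 difference (pulldown minus input) and coloured by whether it passed limma's test at an adjusted p under 0.05; black lines are list medians and the dashed line the median of all genes (0.04). The list medians are 0.37 for the 10 adaptors, 0.11 for the slit diaphragm list, 0.16 for paralogs and 0.44 for partners and regulators.

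The genes outside the 10 whose 6 array values, each relative to the gene's own input mean, lay nearest to the mean profile of the members were Syap1, Med14 and Rab33b. Their root mean square distances over 6 arrays were 0.014 to 0.016 and their differences 0.38, 0.36 and 0.38. With 2 groups and 6 arrays this measure says little more than that the differences are of like size.

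The arrays of a group correlated at 0.998 to 0.999 over all probe sets, those of different groups at 0.982 to 0.983, and no array stood apart. Of 9 measured podocyte markers, Wt1 (9.57), Lmx1b (8.15), Synpo, Cd2ap and Actn4 were over 6.54 in the input, while Nphs1, Podxl (6.04), Ptpro (6.10) and Tcf21 (5.91) were under it. Summed over the list on the linear scale, podocyte markers ran from 14218 to 14700 in the input and from 17196 to 17662 in the pulldown, with 6 higher, 0 lower and 3 not past (0 lower also at an unadjusted p under 0.05 in limma). Synpo, Cd2ap and Actn4 are themselves among the 10 and carry most of that sum, and the other 6 markers ran from 1279 to 1366 and from 1585 to 1632, with 3 higher, 0 lower and 3 not past. Summed mesangial and fibroblast markers ran from 18699 to 19071 and from 21076 to 21625 (3 of 9 higher, 1 lower), endothelial markers from 1692 to 1737 and from 1996 to 2069 (3 of 8 and 1). Tubular and parietal markers ran from 4446 to 4687 in the input and 4292 to 4393 in the pulldown (3 of 11 and 3), and immune markers from 583.2 to 617.6 and 500.7 to 530.0 (0 of 6 and 2, the same counts at an unadjusted p under 0.05 in limma). Of the endothelial markers 2 of 8 were over 6.54 in the input (Ehd3 at 10.34 and Flt1 at 6.68), with Pecam1 (5.62) and Cdh5 (5.74) under it. Among the called endothelial markers only Ehd3 was over 6.54. Tek (5.66) and Kdr (5.34), called higher, and Emcn (5.66), called lower, had input values under 6.54. Of the immune markers 2 of 6 were over it (Cd14 at 7.68 and Cd68 at 7.38), with Ptprc (5.64) under it. Pdgfrb (11.45), Vim (13.56) and Pax8 (11.39) were bright, and Myh11 had the largest difference of these markers, from 10.36 to 11.81 (1.44 ± 0.034). Beside these counts, 31.3% of all genes were higher and 17.3% lower. The part of these markers in the members' differences was not tested.

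With 1 array left out at a time, the median difference of the 10 lay between 0.35 and 0.39, and that of all genes stayed at 0.04. Under cyclic loess the median of the 10 fell to 0.26 and that of all genes to 0.02, and 8 members passed as higher against 25.7% of all genes. Centred on the brightest probe sets, 9 members passed as higher against 27.1% of all genes. The order of the 9 genes ranked above was the same after cyclic loess. Centring shifts the differences of all genes alike, so it could not change the order. Against a null of 1.2-fold, 5 members still passed, namely Anln, Plce1, Synpo, Cd2ap and Nck2, against 15.2% of all genes.

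**Figure D5:**
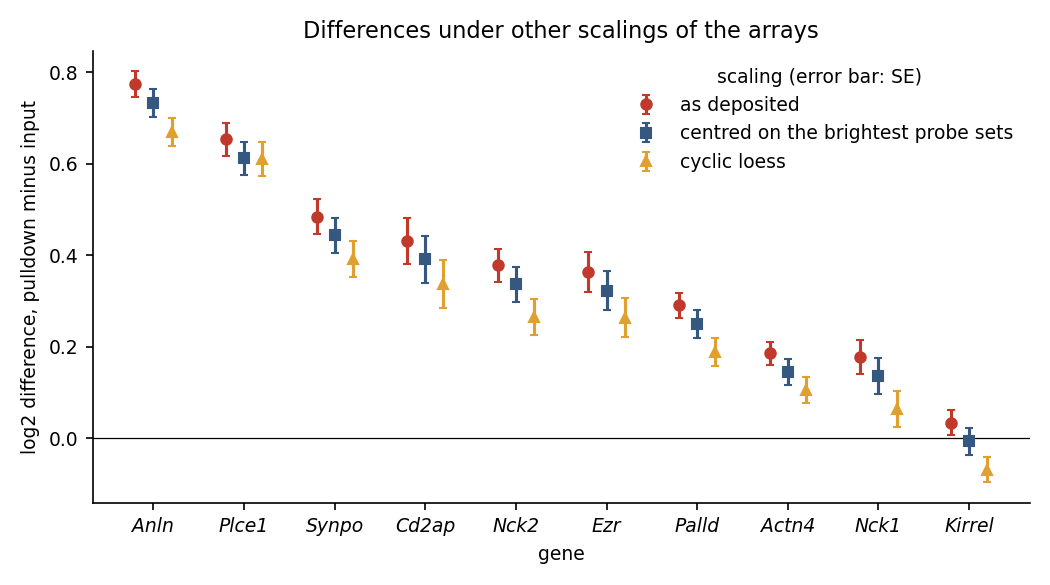
The log2 difference (pulldown minus input) of each gene is shown as deposited, after centring each array on its brightest probe sets and after cyclic loess, with the SE as error bar. Cyclic loess gives the lowest value for every gene, down to 0.06 for Nck1 and -0.07 for Kirrel, while Anln stays at 0.67 and Plce1 at 0.61.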

How the data were processed

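Cells, pulldown and labelling are described above per the labels' protocols. The authors deposited log2 values for each probe set and array. RMA and limma are named in the submitters' processing notes, and neither their versions nor a genome build is given in the sources used here. RMA commonly includes quantile normalization, and array medians were 6.53 to 6.54. Of 35556 probe sets 21789 had 1 symbol, and the brightest over 6 arrays stood for a gene. Differences were fitted over all 19938 genes with limma 3.58.1 in R 4.3.3 (2-sided, no covariates) and adjusted over all of them. Confidence intervals are 95%. Of these genes 19856 matched RefSeq's table through Entrez identifiers. The fit was also run on simulated data with 200 moved genes, far fewer than were called in these data, so no conclusion is drawn from that run. Figures used matplotlib 3.10.9. Precision is limited by the number of arrays (median SE 0.039).

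The members, lists, pairs and alternatives were chosen with earlier results of these data known, so no p adjusted over the members alone is given. All members and both genes of each pair are named, and from the slit diaphragm and partner lists the 4 largest positive and 3 largest negative differences among called genes, as far as there were so many, with Nphs1 in any case. The 3 nearest profiles among genes above the value 6.54 were also named. Rac1, Cdc42, Slc9a3r2, the other slit diaphragm genes under 6.54 and the further paralogs and markers were added after their values were seen. Replicate numbers were taken as names, since deviations from the group means of same-numbered samples correlated at 0.02, 0.11 and -0.06. The alternatives were a replicate block, an intensity trend, array weights, cyclic loess, centring on probe sets above the 75th percentile, a filter on dim genes, averaging the probe sets of a gene, treat with a null of 1.2-fold, adjustment over all probe sets and leaving out each array. Sequences of transcripts or probes were not used here.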

Additional observations from a re-analysis of the deposited data

How the results depend on the processing

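In all 6 fits that left out 1 array 9 members were higher and 0 lower by limma, while 28.4% to 29.7% of all genes were higher and 3193 to 3357 genes lower. Over 15 alternatives each, the 10 members' differences kept their sign and their side of the threshold in 143 of 150 cases. The exceptions were Kirrel, whose sign turned after cyclic loess (-0.068) and after centring on the brightest probe sets (-0.0069), Nck1 after cyclic loess, and Nck1, Actn4, Ezr and Palld against a 1.2-fold change. The block, the trend, the dim-gene filter, averaged probe sets, adjustment over all probe sets and treat leave each member's difference unchanged. No sign could turn in those fits, so the tally includes outcomes fixed in that respect. With a replicate block 9 members were higher, 6247 genes were higher and 3467 lower, and no member's call changed.

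Against a 1.2-fold change 5 members were higher, and of all genes 3034 were higher and 1822 lower, a stricter test by construction. By that test 4 slit diaphragm genes were higher and 1 lower, 3 paralogs were higher and 0 lower, and 24 partners were higher and 0 lower. After cyclic loess 4 slit diaphragm genes, 1 paralog and 11 partners were lower, and 1 paralog was lower after centring on the brightest probe sets; the cause was not tested. Of all calls, 64.4% were higher as deposited, 52.9% after cyclic loess (5127 higher, 4565 lower) and 56.1% after centring. No direction of a paralog pair changed under cyclic loess or without any 1 array. Averaging probe sets could not change a direction, since each gene of the pairs had 1 probe set.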
